A study of Mus musculus with 12 samples.

Results

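This account covers 32 genes that mark macrophages, the phagocytes of tissues, in cultures of mouse embryonic fibroblasts (MEFs). The genes were chosen by name as known markers, with earlier results of these data known. All 32 have probes on the array, and 31 were among the 19507 genes tested. Gene expression was measured on 12 Agilent arrays with 1 dye, 3 in each of 4 groups. The groups were Itpr2 knock-out MEFs after 5 passages (KO late), wild-type MEFs after 5 passages (WT late), knock-out MEFs after 3 passages (KO early) and wild-type MEFs after 3 passages (WT early). All cultures were grown from embryos of embryonic day 12.5, and the labels name no drug. The product of Itpr2 is a calcium channel of the endoplasmic reticulum that opens on binding inositol trisphosphate. The design text of the series names 3 independent sources of MEFs per genotype, and also liver tissue, which was not analysed here. Where numbered cultures share a source is not given, so p-values measure the spread between these arrays. The knock-out allele, the strain and the number of embryos behind each culture are not given in the sources used here.

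Macrophages arise in the embryo from yolk sac and liver precursors and settle in nearly every tissue. Their identity rests on the transcription factor PU.1, the product of Spi1, and on the growth factor receptor CSF1R, which receives CSF1 made by fibroblasts and other neighbours. They carry receptors for antibodies, microbes and dying cells, digest what they take up in lysosomes, and secrete complement C1q. A fibroblast culture grown from whole embryos can carry over such cells.

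Each array held 39429 probes, of which the scanner software called 59.1% to 67.5% well above background and 0 saturated. Values are log2 intensities relative to the 75th percentile of the same array, so a difference of 1 is a doubling, and values of different genes cannot be set against each other. The Itpr2 probe did not separate the genotypes, with log2 signals of 1.85 to 1.96 in KO late, 1.65 to 1.88 in WT late, 1.25 to 1.70 in KO early and 0.81 to 1.35 in WT early arrays. Neither labels nor headers say whether it lies within the deletion, so it does not check the labels, and KO and WT stand below for the labels. Xist, which females transcribe to silence an X chromosome, was detected on 4 arrays, these being replicates 1 and 2 of KO late, replicate 1 of WT late and replicate 1 of WT early. The KO cultures with the same number at early and late passage therefore differed in Xist for numbers 1 and 2. A fit without KO late replicates 1 and 2 is given beside most KO late calls below, but not beside those of Lck and Egfl7. In it 1 KO late array stands against 3 WT late arrays and is assumed to vary like the other groups. Replicates 1, 2 and 3 of every group lay on slides 1, 2 and 3, and the position on the slide went with the group.

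The macrophage genes were plainly measurable in these cultures. All 31 tested members were above background on all 12 arrays, among them Csf1r, Adgre1, an adhesion receptor used to sort mouse macrophages, and Cd68. The remaining member, Cd163, the scavenger receptor for haemoglobin and haptoglobin, was above background on 0 of 12 arrays and was not tested. The 12 fibroblast markers, such as Col1a1 and Vim, were also above background on all 12 arrays. Markers of other blood cells were mixed. Of neutrophil, mast cell and T and B cell markers, 2 of 9, 2 of 9 and 3 of 10 on the array were above background on all 12 arrays, namely Elane and Camp, Tpsb2 and Gata2, and Cd3e, Cd4 and Lck. Mpo, Ltf, Prtn3 and S100a9 of neutrophils, Cpa3, Cma1, Fcer1a and Ms4a2 of mast cells and Cd3g, Cd8a, Cd2, Ms4a1 and Cd79a of T and B cells were above background on 0 of 12 arrays.

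**Figure D1:**
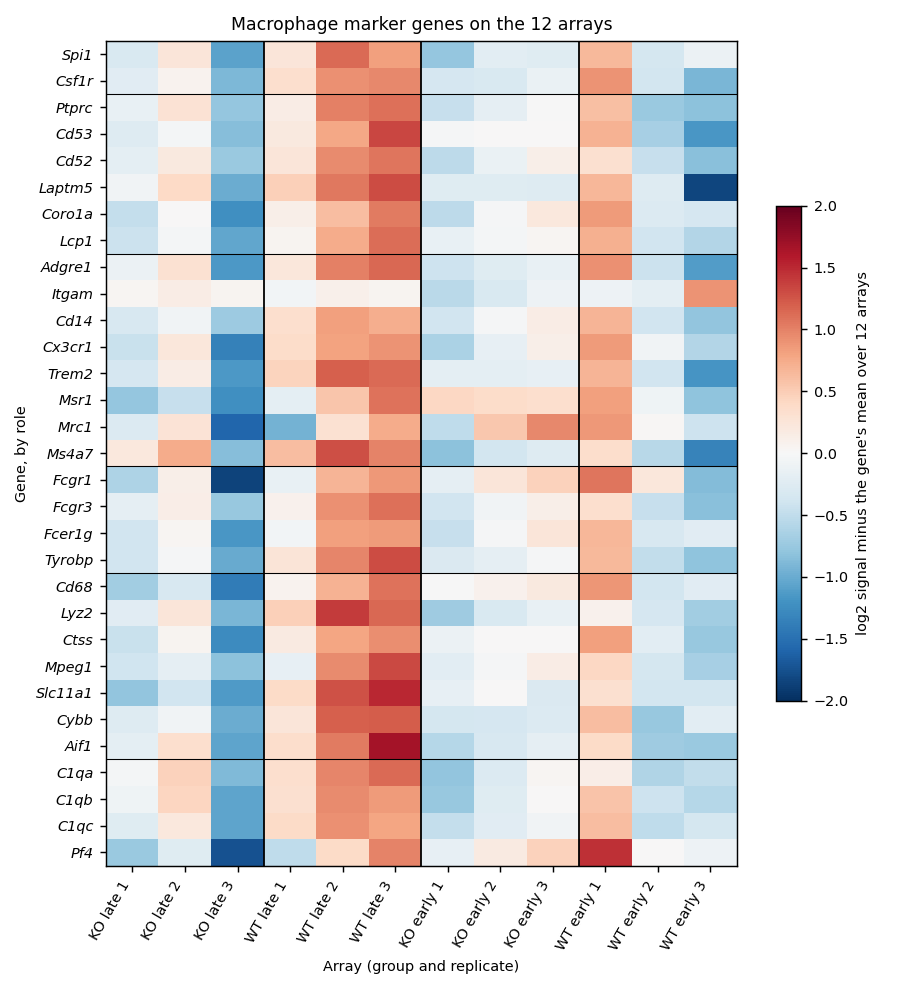
Log2 signal of the 31 tested macrophage genes on the 12 arrays, each gene centred on its own mean over the arrays, with columns by group and replicate and rows by role. Nearly every row is high on WT late replicates 2 and 3 and WT early replicate 1 and low on KO late replicate 3, and Itgam departs from the others.

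The members moved together from array to array. To follow them as 1 quantity, each gene was centred on its mean over the 12 arrays and the 31 values were averaged on each array. This mean was -0.32, 0.11 and -1.05 in KO late replicates 1 to 3, 0.15, 0.88 and 1.04 in WT late, -0.38, -0.10 and 0.04 in KO early, and 0.63, -0.36 and -0.64 in WT early. It was highest on WT late replicates 3 and 2 and lowest on KO late replicate 3, a span of 2.10 on the log2 scale, or 4.27-fold. Cultures of the same group also differed widely. The highest over the lowest was 2.23-fold within KO late, 1.85-fold within WT late, 1.34-fold within KO early and 2.41-fold within WT early. WT early replicate 1 stood apart from its group, with 30 of 31 genes above their own mean, against 3 and 1 genes in replicates 2 and 3. KO late replicate 3 had 1 gene above its mean, against 2 and 21 genes in replicates 1 and 2. The group means were -0.42 ± 0.59 in KO late, 0.69 ± 0.47 in WT late, -0.14 ± 0.21 in KO early and -0.12 ± 0.67 in WT early arrays (SD, n = 3 each).

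**Figure D2:**
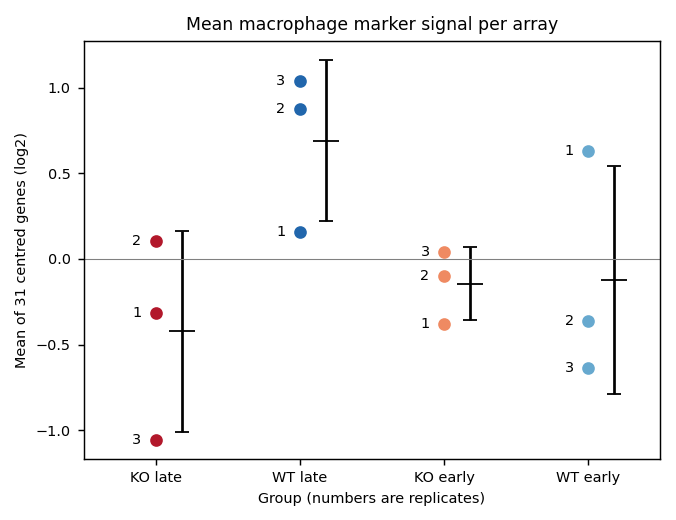
Mean of the 31 centred log2 signals on each array, by group, with replicate numbers beside the points and the group mean and SD. WT late arrays lie between 0.15 and 1.04 and KO late arrays between -1.05 and 0.11, while the early groups overlap.

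The likeness was close for most genes. Across the 12 arrays, which share slides and processing, the 30 members other than Itgam had a correlation with the mean of the other members of 0.68 to 0.99, with a median of 0.95, and 23 reached 0.9. A gene that changes by the same factor as the others has a slope of 1 on their mean. The slopes of these 30 genes ran from 0.82 to 1.21, and 29 lay from 0.8 to 1.2. Tyrobp, the signalling adaptor DAP12, followed the others most closely at r = 0.99. The least close were the mannose receptor gene Mrc1 at r = 0.68, Pf4 at 0.77 and the scavenger receptor gene Msr1 at 0.81.

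KO against WT at late passage gave the widest median difference among the members. Of the 31, 30 were lower in KO late arrays and 1, Itgam, was not. Their median log2 difference was -1.15, a 2.22-fold lower level, where the median over all 19507 genes was 0.01. The interquartile range of the members was -1.27 to -0.997, and 28 were within 0.3 of the median. In RNA from a whole culture, fewer macrophages and less of these RNAs per macrophage cannot be told apart. In the limma fit across all genes, 3 members fell at an adjusted p (Benjamini-Hochberg) under 0.05, namely Slc11a1, Lyz2 and Cd68, and 0 rose. Of all genes, 7.76% were called, 3.7% higher and 4.07% lower in KO. At an unadjusted p under 0.05 stood 27 of the 31 members, or 87.1%, against 24.9% of all genes. The members were chosen with earlier results of these data known, and they move together. Such shares, here and below, therefore describe the list and do not test it. All 3 KO late arrays below all 3 WT late arrays were seen for 19 members, against 19.3% of all genes, and all 3 above for 0 members, against 20.2%. Within slides 1, 2 and 3 the median difference of the members was -0.49, -0.74 and -2.18, with 29, 30 and 30 members lower in KO.

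The number of calls rested on single arrays. It was 7 without WT late replicate 1, when Msr1, Tyrobp, Mpeg1 and Cybb joined the 3 genes and 5.91% of all genes were called. It was 1 without each of the other 5 late arrays in turn, always Slc11a1, with 1.29% to 5.74% of all genes called. Without KO late replicate 3 the median was -0.79, and without WT late replicate 3 it was -0.95. Without KO late replicates 1 and 2 it was -1.80, with 0 members and 0.00513% of all genes called.

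**Figure D3:**
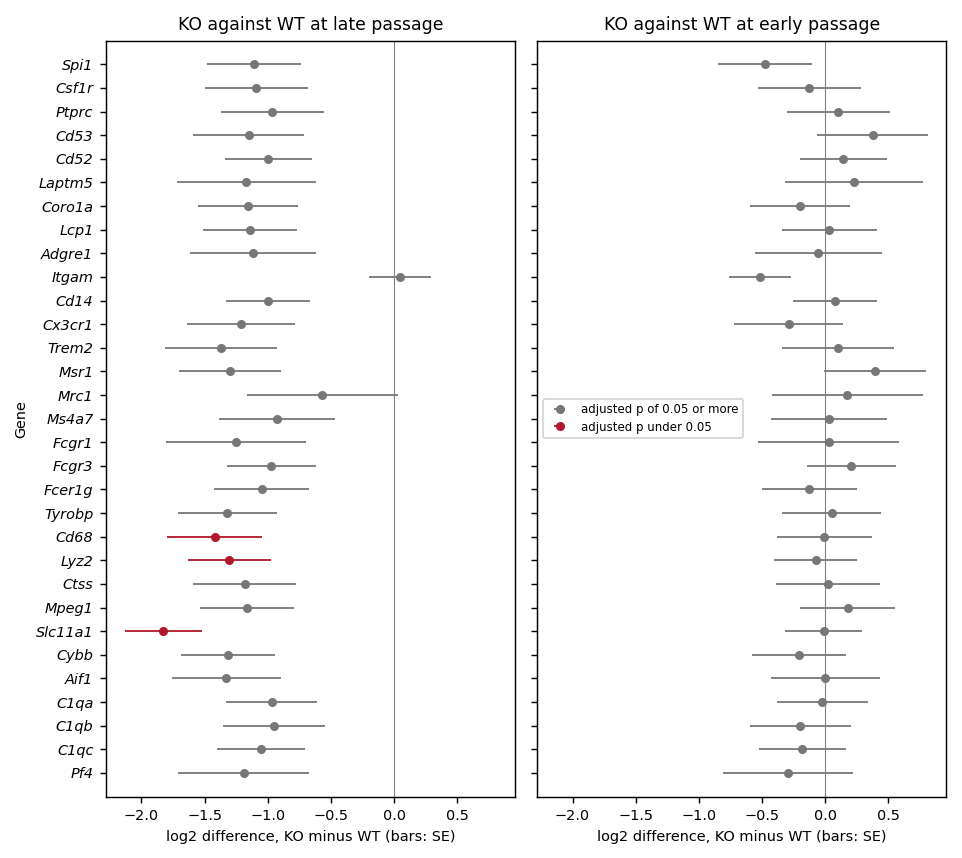
Log2 difference between KO and WT of each tested member at late passage (left) and early passage (right), with bars for the SE of the fit and red for an adjusted p under 0.05. At late passage 30 of 31 genes lie below 0, most near -1.15, and at early passage they scatter around 0.

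Of the regulators, Csf1r, the receptor for CSF1, had log2 signals of 3.94, 4.25 and 3.28 in KO late, 4.51, 5.09 and 5.14 in WT late, 3.84, 3.87 and 4.05 in KO early, and 5.07, 3.81 and 3.26 in WT early arrays. The KO late arrays lay below the WT late arrays without overlap, and WT early replicate 1 was as high as WT late. The late difference was -1.09 ± 0.41 (SE, adjusted p = 0.13). Of the other 2 probes of Csf1r, 1 gave -1.22 and 1, A_55_P2025073, gave -0.29 and had a slope of 0.30 on the other members. Spi1, which encodes PU.1, had -4.82, -4.29 and -5.60 in KO late, -4.29, -3.39 and -3.70 in WT late, -5.31, -4.75 and -4.77 in KO early, and -3.88, -4.88 and -4.64 in WT early arrays. KO late replicate 2 was level with WT late replicate 1. Its late difference was -1.11 ± 0.37 (SE, adjusted p = 0.093).

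The leukocyte-wide genes mark all blood cells of the white lineage. Ptprc, which encodes the CD45 phosphatase, had -2.57, -2.12 and -3.20 in KO late, -2.27, -1.41 and -1.32 in WT late, -2.88, -2.60 and -2.43 in KO early, and -1.82, -3.16 and -3.24 in WT early arrays. KO late replicate 2 was above WT late replicate 1, and the late difference was -0.96 ± 0.41 (SE, adjusted p = 0.18). Laptm5, a lysosomal membrane protein of blood cells, had 0.69, 1.16 and -0.22 in KO late, 1.24, 1.82 and 2.08 in WT late, 0.53, 0.53 and 0.51 in KO early, and 1.43, 0.51 and -1.06 in WT early arrays. Its KO late arrays lay below the WT late arrays, and WT early replicate 3 was the lowest of all 12. The late difference was -1.17 ± 0.55 (SE, adjusted p = 0.22). The tetraspanin gene Cd53, the surface glycoprotein gene Cd52 and the actin-binding Coro1a and Lcp1 had late differences of -1.15, -0.997, -1.16 and -1.14. Of these 6 genes, 5 had KO late arrays below WT late arrays without overlap, Ptprc being the exception, and 0 passed the adjusted threshold.

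Among surface receptors, Adgre1 had 1.33, 1.77 and 0.31 in KO late, 1.68, 2.47 and 2.61 in WT late, 1.05, 1.22 and 1.31 in KO early, and 2.37, 1.03 and 0.34 in WT early arrays. Replicate 2 of KO late reached above replicate 1 of WT late. The late difference was -1.12 ± 0.50 (SE, adjusted p = 0.20). Cd14, a co-receptor for bacterial lipopolysaccharide, had 0.07, 0.32 and -0.33 in KO late, 0.73, 1.21 and 1.12 in WT late, 0.02, 0.37 and 0.55 in KO early, and 1.07, 0.01 and -0.39 in WT early arrays. All KO late arrays were below all WT late arrays, and the late difference was -0.998 ± 0.33 (SE, adjusted p = 0.092). Mrc1, the mannose receptor, had 0.73, 1.28 and -0.59 in KO late, 0.05, 1.31 and 1.75 in WT late, 0.50, 1.54 and 1.97 in KO early, and 1.87, 1.03 and 0.58 in WT early arrays. The late groups overlapped, with KO late replicate 1 above WT late replicate 1, and the late difference was -0.57 ± 0.60 (SE, adjusted p = 0.60). Trem2, a lipid receptor that signals through Tyrobp, the scavenger receptor gene Msr1, the fractalkine receptor gene Cx3cr1 and Ms4a7, a membrane protein of the MS4A family, had late differences of -1.37, -1.30, -1.21 and -0.93. Of the 8 receptors tested, 7 were lower and 0 were called.

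Itgam, which encodes the CD11b integrin chain, depended on the probe. The brightest probe, which stood for the gene, had 3.78, 3.90 and 3.80 in KO late, 3.70, 3.84 and 3.80 in WT late, 3.21, 3.44 and 3.65 in KO early, and 3.65, 3.56 and 4.65 in WT early arrays. WT early replicate 3 was the highest and KO early replicate 1 the lowest, and the correlation with the other members was -0.13. Its late difference was 0.05 ± 0.24 (SE, adjusted p = 0.93). A second Itgam probe, A_55_P1977929, had -3.55, -3.22 and -4.37 in KO late, -3.36, -2.63 and -2.61 in WT late, -3.96, -3.45 and -3.25 in KO early, and -2.59, -3.56 and -3.84 in WT early arrays. It was high and low on the same arrays as the other members, with a correlation of 0.97. Its late difference was -0.85 ± 0.38 (SE, adjusted p = 0.20), with this probe picked after the values were seen. The remaining probe gave -0.47 and a correlation of 0.79.

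**Figure D4:**
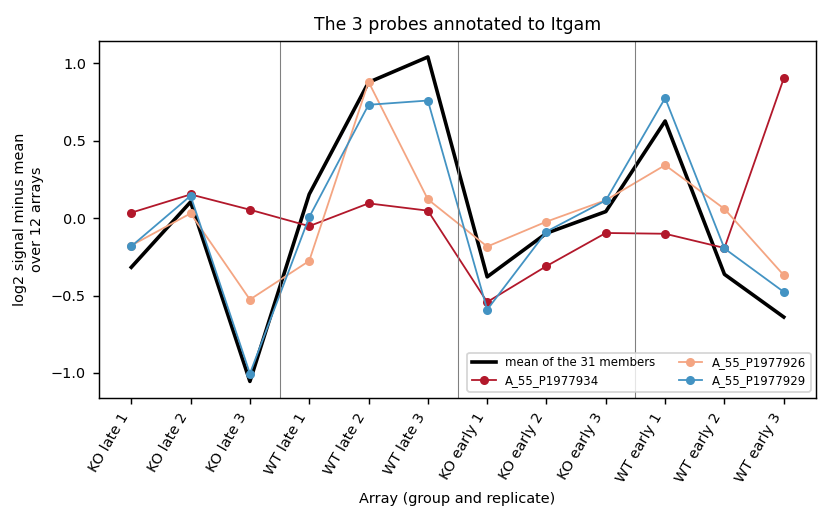
Log2 signal of the 3 Itgam probes on each array, each centred on its own mean over the 12 arrays, with the mean of the 31 members as a black line. The second probe follows the other members with a correlation of 0.97 over the 12 arrays, while the brightest, in dark red, does not and is highest on WT early replicate 3.

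The Fc receptors bind antibody, and Fcer1g and Tyrobp are adaptors that carry the signal of these and related receptors, such as Trem2. Fcer1g had 2.90, 3.31 and 2.11 in KO late, 3.23, 4.10 and 4.13 in WT late, 2.82, 3.25 and 3.52 in KO early, and 3.95, 2.96 and 3.05 in WT early arrays. KO late replicate 2 was above WT late replicate 1. The late difference was -1.05 ± 0.38 (SE, adjusted p = 0.11). Tyrobp had 2.69, 3.04 and 2.05 in KO late, 3.32, 4.04 and 4.38 in WT late, 2.78, 2.89 and 3.04 in KO early, and 3.72, 2.58 and 2.26 in WT early arrays. Its KO late arrays were all below its WT late arrays, and the late difference was -1.32 ± 0.39 (SE, adjusted p = 0.066). The high-affinity IgG receptor gene Fcgr1 and the low-affinity Fcgr3 had late differences of -1.25 and -0.97, and both groups overlapped. Of these 4 genes, 4 were lower and 0 were called.

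Genes of the lysosome and of killing held all 3 calls. All 7 had every KO late array below every WT late array. Slc11a1 encodes the metal transporter NRAMP1 of the phagosome. It had -1.66, -1.25 and -2.01 in KO late, -0.49, 0.41 and 0.64 in WT late, -1.03, -0.86 and -1.15 in KO early, and -0.55, -1.24 and -1.23 in WT early arrays. The KO late arrays were the 3 lowest of the 12, replicate 2 by a narrow margin, and the WT late arrays were the 3 highest, replicate 1 lying close to WT early replicate 1. Slc11a1 fell 3.55-fold in KO late against WT late, a log2 difference of -1.83 ± 0.30 (SE, adjusted p = 0.0099), and was called without any 1 late array (adjusted p of 0.0050 to 0.048), but not without both KO late replicates 1 and 2 (0.15). Lyz2, lysozyme, had 1.71, 2.18 and 1.02 in KO late, 2.41, 3.33 and 3.09 in WT late, 1.22, 1.62 and 1.78 in KO early, and 2.01, 1.60 and 1.24 in WT early arrays. The WT late arrays were above all arrays of the other 3 groups. Lyz2 fell 2.47-fold in KO late against WT late, a log2 difference of -1.31 ± 0.33 (SE, adjusted p = 0.040). Without a late array in turn its adjusted p was 0.031 to 0.12, and under 0.05 only without WT late replicate 1. Leaving out KO late replicates 1 and 2 together gave 0.16. Cd68, a sialomucin of late endosomes, had 1.98, 2.35 and 1.27 in KO late, 2.73, 3.36 and 3.76 in WT late, 2.66, 2.75 and 2.87 in KO early, and 3.56, 2.29 and 2.44 in WT early arrays. Here KO late arrays lay below the KO early arrays as well as below WT late. Cd68 fell 2.67-fold in KO late against WT late, a log2 difference of -1.42 ± 0.38 (SE, adjusted p = 0.047). Its adjusted p was 0.076 with the replicate number as a block and 0.040 to 0.15 without a late array in turn, under 0.05 only without WT late replicate 1, and 0.21 without both KO late replicates 1 and 2.

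The other 4 effectors did not pass the threshold. Ctss, the protease cathepsin S, had 2.49, 2.99 and 1.68 in KO late, 3.12, 3.73 and 3.87 in WT late, 2.82, 2.95 and 2.95 in KO early, and 3.76, 2.72 and 2.17 in WT early arrays. KO late and WT late did not overlap, and the late difference was -1.18 ± 0.41 (SE, adjusted p = 0.10). Mpeg1, the pore-forming perforin-2, Cybb, the catalytic chain of the phagocyte oxidase, and Aif1, the actin-binding IBA1, had late differences of -1.16, -1.31 and -1.33. Their adjusted p-values were 0.084, 0.058 and 0.086. Over 20 lysosome genes that fibroblasts also use, such as Lamp1 and Ctsd, the median late difference was -0.14. Of these, 1 was called higher, Lamp2 at 0.43 ± 0.093 (SE), and 0 were called lower, against 3.7% and 4.07% of all genes. Lamp2 had an adjusted p of 0.31 without KO late replicates 1 and 2.

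The 250 bases before the start of each gene were searched for 2 preset sequences. Whether these bear on the common movement of the members was not tested. RefSeq promoters of assembly GRCm38.p6 matched 24 of the 32 members by symbol. The 6 letters GAGGAA, the core bound by PU.1 and other ETS factors, were found on either strand in 15 of these 24 genes, or 62.5%, against 25.9% of 27025 genes with such a promoter. The AP-1 sequence TGACTCA, searched on both strands, was in 1 of the 24, Cd68, or 4.17%, against 5.16% of all genes. The 2 motifs cannot overlap each other, and the shares describe letters, not binding. Promoters of the 3 called genes are shown, with Ctss as an example of the same group that was not called. Those of Mpeg1, Cybb and Aif1 are not shown. Each is read 5′ to 3′ towards the gene, with capitals for GAGGAA or its reverse complement TTCCTC. Slc11a1 is chr1:74374953-74375202 on the plus strand, Cd68 is chr11:69666171-69666420 on the minus strand, Ctss is chr3:95526536-95526785 on the plus strand and Lyz2 is chr10:117282273-117282522 on the minus strand. The match lies 152 bases before the start in Slc11a1, 225 in Cd68 and 164 in Ctss, and Lyz2 has 0 matches in this window.
Slc11a1: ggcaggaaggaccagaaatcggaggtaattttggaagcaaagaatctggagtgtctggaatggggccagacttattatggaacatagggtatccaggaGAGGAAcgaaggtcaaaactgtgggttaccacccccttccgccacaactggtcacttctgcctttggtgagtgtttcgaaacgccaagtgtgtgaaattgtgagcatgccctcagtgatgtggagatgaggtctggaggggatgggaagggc
Cd68: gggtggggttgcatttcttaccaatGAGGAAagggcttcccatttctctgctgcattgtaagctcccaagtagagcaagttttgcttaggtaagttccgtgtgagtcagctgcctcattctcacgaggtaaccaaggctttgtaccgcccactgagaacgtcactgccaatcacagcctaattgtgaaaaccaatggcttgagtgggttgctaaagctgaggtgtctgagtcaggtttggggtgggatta
Ctss: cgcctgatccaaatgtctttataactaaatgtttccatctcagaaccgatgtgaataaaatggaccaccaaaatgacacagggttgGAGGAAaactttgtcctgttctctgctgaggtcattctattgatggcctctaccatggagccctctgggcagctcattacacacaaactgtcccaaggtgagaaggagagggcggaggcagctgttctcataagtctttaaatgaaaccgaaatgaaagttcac
Lyz2: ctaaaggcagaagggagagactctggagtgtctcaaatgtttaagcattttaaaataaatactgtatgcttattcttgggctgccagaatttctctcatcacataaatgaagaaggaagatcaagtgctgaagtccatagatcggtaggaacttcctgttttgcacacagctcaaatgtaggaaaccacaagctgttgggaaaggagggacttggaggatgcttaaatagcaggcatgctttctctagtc

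Of the secreted products, C1qa, C1qb and C1qc encode the 3 chains of complement C1q. C1qa had 1.90, 2.39 and 1.06 in KO late, 2.27, 2.92 and 3.08 in WT late, 1.15, 1.66 and 1.98 in KO early, and 2.07, 1.33 and 1.45 in WT early arrays. C1qb had 1.69, 2.21 and 0.73 in KO late, 2.11, 2.73 and 2.63 in WT late, 1.02, 1.55 and 1.78 in KO early, and 2.36, 1.36 and 1.21 in WT early arrays. C1qc had 2.61, 3.06 and 1.80 in KO late, 3.24, 3.76 and 3.63 in WT late, 2.37, 2.61 and 2.78 in KO early, and 3.46, 2.34 and 2.50 in WT early arrays. In all 3 chains KO late replicate 3 was the lowest late array, and only C1qc had KO late and WT late arrays that did not overlap. The late differences were -0.97 ± 0.36 (SE, adjusted p = 0.13), -0.95 ± 0.40 (SE, adjusted p = 0.18) and -1.06 ± 0.35 (SE, adjusted p = 0.090), in that order. Pf4, a chemokine of platelets that mouse macrophages also make, had 0.71, 1.21 and -0.29 in KO late, 0.95, 1.82 and 2.43 in WT late, 1.28, 1.63 and 1.92 in KO early, and 2.91, 1.46 and 1.34 in WT early arrays. WT early replicate 1 was its highest array and KO late replicate 3 its lowest. Its late difference was -1.19 ± 0.52 (SE, adjusted p = 0.18).

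KO against WT at early passage was centred near 0. The limma fit called 0 of 31 members, where 0.0359% of all genes were called, 0.0256% higher and 0.0103% lower, and 0 members had an unadjusted p under 0.05, against 6.04% of all genes. In KO early 16 members were higher and 15 lower, with a median log2 difference of 0.00028. The range was -0.52 for Itgam to 0.40 for Msr1, and 0 members had groups without overlap, against 5.59% of all genes with KO early all above and 4.13% with KO early all below WT early. This balance rested on WT early replicate 1. Within slide 1, which holds it, the median was -0.96 with 31 of 31 members lower in KO. Within slides 2 and 3 it was 0.29 and 0.78, with 29 and 28 members higher in KO. Without WT early replicate 1 the median was 0.43, and without WT early replicate 3 it was -0.26. The median SE of a member was 0.40.

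Late against early passage in WT put 28 of 31 members higher after 5 passages. The median log2 difference was 0.87, or 1.83-fold, against -0.01 over all genes. Lyz2 rose 2.50-fold, a log2 difference of 1.32 ± 0.33 (SE, adjusted p = 0.033), and Slc11a1 rose 2.28-fold, 1.19 ± 0.30 (SE, adjusted p = 0.036). These 2 calls compare with 10.4% of all genes called, 6.05% higher and 4.37% lower. At an unadjusted p under 0.05 stood 16 members, or 51.6%, against 28.5% of all genes. WT late arrays were all above WT early arrays in 4 members, against 13.6% of all genes, and all below in 0 members, against 14.3%. Ms4a7 had the widest difference at 1.48 ± 0.46 (SE, adjusted p = 0.068), and Itgam, Mrc1 and Pf4 had -0.17, -0.12 and -0.17. Of the 12 fibroblast markers 11 were lower in WT late, with a median log2 difference of -0.40 and Fap and Col1a2 called lower. The mean of the 12 centred fibroblast markers ran from -0.63 to -0.091 in WT late and from 0.045 to 0.40 in WT early arrays. In KO it was also lower after passage, at -0.32 to -0.12 in KO late and 0.25 to 0.38 in KO early arrays. There 9 of the 12 markers were lower and 3 higher, with a median log2 difference of -0.19. Without KO late replicates 1 and 2 that median was -0.12. With all arrays 3 markers were called lower and 0 higher, where 8.68% and 10.2% of all genes were. The part of this mean in the member values was not tested.

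The WT passage result turned on WT early replicate 1. Without it 16 of the 31 members were called higher, the median of the 31 was 1.21, and 12.5% of all genes were called. Those 16 were Csf1r, Ptprc, Cd53, Cd52, Laptm5, Adgre1, Cd14, Trem2, Ms4a7, Fcgr3, Tyrobp, Lyz2, Slc11a1, Cybb, Aif1 and C1qc. Without WT late replicate 1 there were 3, and without replicate 2 or 3 of either WT group there were 0, with 6.04% to 8.05% of all genes called in these fits. With the replicate number as a block, which pairs the WT cultures, 1 member was called, Lyz2 at an adjusted p of 0.036, with Slc11a1 at 0.053 and 11.2% of all genes called. Within slides 1, 2 and 3 the median was -0.41, 1.36 and 1.72, with 5, 31 and 30 members higher in WT late.

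Late against early passage in KO called 0 of 31 members by limma, where 18.9% of all genes were called, 10.2% higher and 8.68% lower, and 2 members had an unadjusted p under 0.05, 6.45% against 33.4% of all genes. In KO late 22 members were lower and 9 higher, with a median log2 difference of -0.26. The lowest was Msr1 at -1.19 ± 0.40 (SE, adjusted p = 0.066). Its log2 signals were -2.49, -2.16 and -2.94 in KO late and -1.30, -1.34 and -1.36 in KO early arrays, without overlap. The other Msr1 probe, A_52_P127130, gave -0.79, less low than Pf4 at -1.07. KO late arrays were all below KO early arrays in 5 members, against 28.3% of all genes, and all above in 1, against 23.3%. Leaving out KO late replicate 3 gave a median of 0.09, and leaving out KO late replicates 1 and 2 gave -0.80, with 0 members and 0.81% of all genes called. Within slides 1, 2 and 3, which did not pair the KO cultures, it was 0.10, 0.27 and -0.97.

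The difference between the passage change in KO and that in WT was negative for 30 of 31 members, with a median of -1.11 on the log2 scale. The limma fit called 0 of 31, where 0.0871% of all genes were called, 0.0205% with a positive and 0.0666% with a negative difference, and 11 members had an unadjusted p under 0.05, or 35.5%, against 13.9% of all genes. The lowest adjusted p was 0.15, for Slc11a1 at -1.82 ± 0.43 (SE). The median SE of this difference was 0.56 for the members.

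Against this common movement, some genes lay to the same side of the member median in both genotypes, which share no arrays here. Pf4, Mrc1, Msr1, Fcgr1 and Cd68 lay at least 0.3 below the member median of the passage change in WT and in KO. Ms4a7, Aif1 and Lyz2 lay at least 0.3 above it in both. This margin is smaller than the median SE of a member's passage difference, 0.40. The other Msr1 probe, with 0.60 in WT and -0.79 in KO, did not reach the margin in WT. Mrc1 and Pf4 had passage differences of -0.86 and -1.07 in KO and of -0.12 and -0.17 in WT. Lyz2 and Ms4a7 had 0.09 and 0.52 in KO and 1.32 and 1.48 in WT. Across the 31 members the 2 passage changes had a correlation of 0.53, and across 30 without Itgam of 0.76. This is a description, since genes are not independent.

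**Figure D5:**
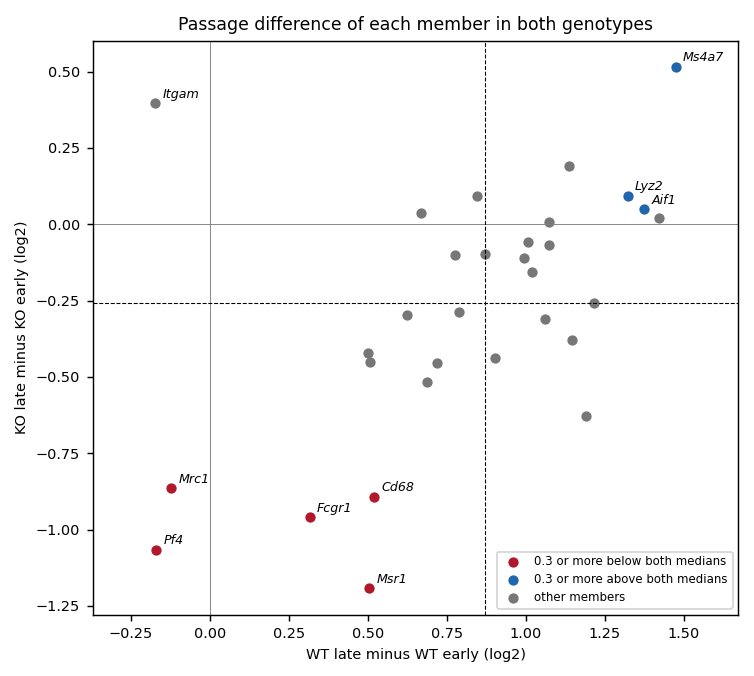
Log2 passage difference, late minus early, of each tested member in WT (horizontal) and in KO (vertical), with dashed lines at the member medians of 0.87 and -0.26. Pf4, Mrc1 and Msr1 lie low and Ms4a7, Aif1 and Lyz2 lie high in both genotypes.

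A list of further myeloid genes had medians close to those of the members. Of 66 such genes, 61 were tested, and 58 were lower in KO late than in WT late, with a median log2 difference of -1.04. In this list 10 genes fell and 1 rose at the adjusted threshold, where 4.07% of all genes were called lower and 3.7% higher. Gpnmb, a lysosomal glycoprotein of lipid-laden macrophages, fell to -1.07 ± 0.32 in KO late, against 1.24 ± 0.58 in WT late arrays (SD, n = 3 each, log2 signal), 4.99-fold. Cyba, a chain of the phagocyte oxidase, had a log2 difference of -0.43, the microbial sensor Tlr2 -0.68, the tyrosine kinase Syk -1.14 and the chemokine Ccl9 -1.19. The transcription factor gene Cebpb, which many cell types use, rose by 0.71. Without KO late replicates 1 and 2 the median of the 61 was -1.57 with 58 lower and 0 called, and the adjusted p was 0.13 for Gpnmb and 0.078 to 0.36 for the other 5 genes named. With passage in WT, 8 of the 61 were called higher and 0 lower, where 6.05% and 4.37% of all genes were. The median of the 61 was 0.82. The 8 genes included Tlr2 at 1.03, Clec4n, a receptor for fungal sugars, at 2.18, and the cytokine receptor genes Csf3r and Csf2ra at 0.63 and 0.70. Fpr1 and Itgax had 2.81 and 1.98, each above background on 1 of 3 WT early arrays, so their size is uncertain. With passage in KO, 3 were called higher and 4 lower, where 10.2% and 8.68% of all genes were. The median of the 61 was -0.21. The median of KO against WT at early passage was -0.0017.

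Of the 15 genes most like the members over the 12 arrays, 4 stood in the list of further myeloid genes. The closest of 1621 candidates with an SD of at least 0.5 was Irf8, a transcription factor of macrophages and dendritic cells, at r = 0.99 with the member mean. It was followed by Cd48, Inpp5d, Arhgap25, Ccdc88b, Pik3cg, Nckap1l, Lrrc25, Cyth4, Plek, Arhgap4, Igsf6, Ebi3, Lmo2 and Ptpro, all above 0.98. In all 138 candidates, or 8.51%, reached 0.9. Their late differences are not independent of the members, since the same arrays chose them.

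In lists of other cell types the median KO late against WT late difference ran from -0.33 for osteoclast to 0.10 for fibroblast markers. Single genes were called, where 3.7% of all genes were called higher and 4.07% lower. Lck of the T and B cell list was higher by 1.26 ± 0.19 (SE, adjusted p = 0.0062), at r = -0.65 with the member mean. Egfl7 of the endothelial list was higher by 0.62 ± 0.17 (SE, adjusted p = 0.049), at r = -0.62. For Lck and Egfl7 the fit without KO late replicates 1 and 2 is not given. The osteoclast calls are given further below. Of the 12 fibroblast markers 1 rose and 1 fell, with Col3a1 higher by 0.97 and S100a4 at -1.34, and neither was called without KO late replicates 1 and 2 (adjusted p of 0.23 and 0.42). Their correlations with the member mean ran from -0.58 to 0.18. Among MHC class II genes 6 of 8 were tested, with a median of -0.25 and 0 called, and H2-Aa and Ciita were above background on 0 arrays. The part of shifts in other cell types in the member values was not tested.

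The macrophage growth factor Csf1 had log2 signals of 2.40, 2.35 and 2.50 in KO late, 2.96, 2.99 and 3.31 in WT late, 2.97, 2.89 and 2.82 in KO early, and 2.89, 2.83 and 3.08 in WT early arrays, and fell in KO late against WT late by 0.67 ± 0.11 (SE, adjusted p = 0.0099). The monocyte chemokine Ccl2 fell by 1.35 ± 0.12 (adjusted p = 0.00097). The other CSF1R ligand gene, Il34, differed by -0.22 ± 0.22 (adjusted p = 0.59). Over the 12 arrays the correlation with the member mean was 0.47 for Csf1 and 0.54 for Ccl2. For the ligand genes Ccl8, Ccl7, Cx3cl1, Il34 and Cxcl12 it was 0.03, -0.03, -0.04, -0.13 and -0.30. Of the 8 genes tested in this list, which includes Csf1r, 6 were lower and 2 higher in KO late than in WT late. Called lower were 2 and called higher 0, where 4.07% and 3.7% of all genes were. In the fit without KO late replicates 1 and 2 the differences were -0.59 for Csf1, -1.19 for Ccl2 and 0.28 for Il34, with adjusted p-values of 0.27, 0.080 and 0.61. The part of these ligands in the member values was not tested.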

How the data were processed

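RNA of 12 MEF cultures was hybridised to Agilent arrays with 1 dye. Per the file headers, the deposited scanner files hold the intensity of each spot after background subtraction and removal of trends across the array, with no scaling between arrays. The file headers name Agilent Feature Extraction 11.5.1.1, and the submitters' processing notes name 10.7.3.1. The authors' deposited value table holds log2 values of 22887 probes, which its values show to be centred on each probe's mean (all complete probe means within 0.0001 of 0, correlation with the centred scanner values 0.998 to 0.999). It was used as an alternative. Its column medians ran from -0.0428 to 0.0232, and 3175 values were missing.

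Control spots and outlier spots (100 to 212 an array) were left out, repeated spots averaged, and log2 intensities taken relative to each array's 75th percentile, an intensity of 522 to 836. Probes that some group had well above background on each of its 3 arrays were kept, 24359 in all. The kept probe with the highest mean stood for its gene. Accessions on the array were matched to RefSeq symbols, for 27969 of 28290 probes with a RefSeq accession.

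For tests, limma 3.58.1 under R 4.3.3 fitted 1 model of 4 group means to 12 arrays (residual degrees of freedom 8, prior 2.19). The Benjamini-Hochberg adjustment ran over 19507 genes, with a threshold of 0.05. With 3 arrays against 3, the number of arrays limits precision, and 0.1 is the smallest two-sided p of an exact permutation test. The fit was tested on simulated data.

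The members, companion lists and tests were chosen with earlier results of these data known, so no p is given for a list. Values on every array are given for called members and for 18 genes set by name, other than Cd163, which was not tested. From companion lists at most 6 called genes are named by adjusted p, and the 15 genes most like the member mean. Same-numbered arrays share a slide. The correlation of their deviations from group means was 0.14 to 0.28 between WT late and WT early, above 0.1 for every pair, and -0.09 to 0.08 between KO late and KO early. Alternatives were quantile normalization, normexp, no filter, a stricter filter, the replicate block, fits of 2 groups, the mean of all probes, the authors' table, Xist as a covariate and leaving out arrays. The scanner files used here have no mean signal column, so normexp took the median spot and background intensities with an offset of 50.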

Additional observations from a re-analysis of the deposited data

Results flagged for a closer look

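Slc11a1, the phagosome metal transporter, moved in opposite directions with passage in the 2 genotypes on every slide. Late minus early was -0.63, -0.39 and -0.86 in KO and 0.06, 1.65 and 1.87 in WT on slides 1, 2 and 3. The difference between the genotypes was -1.82 on the log2 scale, with an adjusted p of 0.15 in the limma fit, so it did not pass the threshold. It was -2.18 without KO late replicates 1 and 2 (adjusted p = 0.65). The slides did not pair the KO cultures.

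Ccl2, the monocyte chemokine, differed between genotypes in its passage change by -1.65 ± 0.18 (SE, adjusted p = 0.012). With passage it fell by 0.57 ± 0.12 in KO (adjusted p = 0.012) and rose by 1.08 ± 0.12 in WT (adjusted p = 0.0017). Its mean log2 signal was 1.78 ± 0.14 in KO late, 3.13 ± 0.04 in WT late, 2.35 ± 0.10 in KO early and 2.05 ± 0.24 in WT early arrays (SD, n = 3 each). Without KO late replicates 1 and 2 the difference between genotypes was -1.49 ± 0.23 (SE, adjusted p = 0.41) and the KO passage difference -0.41 (adjusted p = 0.33), so neither was called.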

How the results depend on the processing

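Of the counts and medians over the members, 156 values under alternatives differed from those reported by less than 1 SD between replicates or 1.5 times the count, and 20 by more. Medians with 0 members called did change sign within that SD. The KO passage median of -0.26 was 0.09 without KO late replicate 3, and the early KO against WT median of 0.00028 was 0.43 and -0.26 without WT early replicates 1 and 3. For KO against WT at late passage, the 3 calls became 1 with no filter, 0 without KO late replicates 1 and 2, and 1 to 7 when late arrays were left out in turn, where 1.86%, 0.00513% and 1.29% to 5.91% of all genes were called, against 7.76%. The median of -1.15 became -1.80 without KO late replicates 1 and 2. For late against early passage in WT, the 2 calls became 0 with no filter, 1 with the replicate block, 0 in a fit of only the 2 groups compared, and 0 to 16 when WT arrays were left out in turn, where 3.06%, 11.2%, 2.7% and 6.04% to 12.5% of all genes were called, against 10.4%. For late against early passage in KO, the 0 calls became 1 in a fit of only the 2 groups, namely Msr1, with 27.4% of all genes called against 18.9%, and the median of -0.26 became -0.80 without KO late replicates 1 and 2. The median difference between the genotypes in the passage change, -1.11, became -1.73 without them. With no filter 31978 genes were adjusted for, and leaving out arrays leaves fewer samples. The cause of the other moves was not tested. The other values were fits of single called members and the SD of the member mean over the 12 arrays. Of these, 52 kept their call or, for the SD, their value. In 32 a called member kept its direction but lost its call, Cd68 and Lyz2 most often. The replicate block left 2 calls for KO against WT at late passage, Lyz2 and Slc11a1, and changed no further count of members. Replacing the Itgam probe, an alternative chosen after seeing the data, left the 3 late calls. The 31 tested members were above background on all 12 arrays, and Cd163 was not, so nothing can be said of its differences.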

Other observations

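Among 7 tested genes of osteoclasts, which share a precursor with macrophages, Ctsk and Acp5 passed the threshold. In KO late against WT late 1 was called lower and 1 higher, where 4.07% and 3.7% of all genes were. With passage both were called lower in each genotype, where 8.68% of all genes were in KO and 4.37% in WT. Ctsk, the protease cathepsin K, fell to -0.45 ± 0.25 in KO late, against 0.94 ± 0.51 in WT late arrays (SD, n = 3 each, log2 signal, adjusted p = 0.017 by limma). It was also lower after passage, by a log2 difference of -2.61 ± 0.27 in KO and -1.12 ± 0.27 in WT (SE, adjusted p of 0.00047 and 0.028). Acp5, an acid phosphatase, was higher, at -1.24 ± 0.21 in KO late against -2.10 ± 0.37 in WT late arrays (adjusted p = 0.0499), and fell with passage by 1.13 ± 0.23 in KO and 1.45 ± 0.23 in WT (SE). Without KO late replicates 1 and 2, of these KO results only the passage difference of Ctsk was called (-2.86 ± 0.40, adjusted p = 0.029), and the late differences of Ctsk and Acp5 had adjusted p-values of 0.20 and 0.30. Over the 12 arrays the correlation with the member mean was 0.11 for Ctsk and -0.43 for Acp5. Over the 7 tested osteoclast genes it ran from -0.43 to 0.71, the highest being Tnfrsf11a, with a median of 0.04. Calcr and Dcstamp were above background on 0 arrays.

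Gpnmb fell with passage in KO by 2.15 ± 0.33 (SE, adjusted p = 0.0030), and its correlation with the member mean was 0.52. Fap, a protease of fibroblasts, fell with passage by 2.57 ± 0.31 in KO and by 2.17 ± 0.31 in WT (adjusted p of 0.00092 and 0.0038), with a correlation of -0.08. Without KO late replicates 1 and 2 the KO passage differences were -2.48 for Gpnmb and -2.35 for Fap, with adjusted p-values of 0.065 and 0.064.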
